A study of Mus musculus with 26 samples.

Results

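Collagen chains and the enzymes that fold and cross-link them were followed in mouse neural progenitor cells that differentiated into astrocytes with or without tumour necrosis factor (TNF). The members were every gene whose platform symbol was written as Col, a number, a and a number, together with Lox, Loxl1, Loxl3, Loxl4, P4ha1, P4ha2, Plod1, Plod2 and Serpinh1. They came to 53 of the 19938 genes that had a probe set with a single symbol, of which 44 were collagen chains and 9 were enzymes or the chaperone. Loxl2 shared its probe set with another symbol and was not analysed here. For the 3 genes with several probe sets (Loxl4, Col6a5 and Col6a6), the brightest was used.

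The cells were neurospheres (NSPs), floating colonies of neural stem and progenitor cells, grown from the ventricular zone of C57BL/6J embryos at embryonic day 14. From time 0 all NSPs were kept on a coated surface in medium with 10% FBS, and the treated NSPs also received TNF at 50 ng/mL. Untreated NSPs were sampled at 0, 6, 24, 48 and 72 h on 3 arrays per time. TNF-treated NSPs were sampled from 6 h on, also on 3 arrays per time, except that 72 h had 2. The 26 arrays are described as biological replicates without naming cultures or animals, so the tests measure the spread between these arrays, and their number limits the precision. The paper's growth medium held epidermal growth factor (EGF), and its differentiation medium lists none. Both arms held serum on the coated surface. Serum, loss of EGF, attachment, time in culture and differentiation therefore cannot be told apart in the untreated course.

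Collagens are built from 3 chains that wind into a triple helix inside the endoplasmic reticulum. Prolyl and lysyl hydroxylases modify the chains, the chaperone HSP47 (Serpinh1) holds the helix, and lysyl oxidases cross-link the secreted molecules. Fibrillar collagens give tissues their tensile strength, collagen IV forms the sheet of basement membranes, collagen VI forms beaded filaments beside them, and the FACIT collagens sit on the surface of fibrils. In brain, fibrillar collagen is largely made by cells of vessels and meninges, while astrocytes contribute to the basement membrane at their endfeet.

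Several members changed, among them Col8a1, Col12a1, Plod2 and chains of collagen IV and collagen VI. The genes of these collagen IV and VI chains lie in pairs, which is not particular to them. Col4a1 and Col4a2 also lie side by side on chromosome 8, and Col4a3 and Col4a4 on chromosome 1. None of these other collagen IV chains was called higher. Col6a4, Col6a5 and Col6a6 lie near each other on chromosome 9. Col6a1 and Col6a2 are neighbours on chromosome 10, with 85161 bases between the annotated genes, and Col4a5 and Col4a6 are transcribed away from each other on chromosome X from starts that are 1343 bases apart. The promoter sequences of these genes are shown because the members of each pair rose together, Col6a1 and Col6a2 with TNF and Col4a5 and Col4a6 in the untreated course. The sequences are from RefSeq on GRCm38.p6, read 5′ to 3′ on the gene's own strand. They lie at chr10:76726045-76726294 (Col6a1, minus strand), chr10:76623631-76623880 (Col6a2, minus strand, the outermost of 2 listed starts), chrX:141475169-141475369 (Col4a5, plus strand) and chrX:141474096-141474326 (Col4a6, minus strand), and stop before the annotated gene. Capitals mark a match to the AP-1 motif TGANTCA.
Col6a1: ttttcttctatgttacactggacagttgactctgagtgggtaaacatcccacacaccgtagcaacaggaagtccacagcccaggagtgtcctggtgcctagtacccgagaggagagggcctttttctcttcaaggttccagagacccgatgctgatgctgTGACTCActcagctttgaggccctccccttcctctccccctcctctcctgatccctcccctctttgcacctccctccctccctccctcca
Col6a2: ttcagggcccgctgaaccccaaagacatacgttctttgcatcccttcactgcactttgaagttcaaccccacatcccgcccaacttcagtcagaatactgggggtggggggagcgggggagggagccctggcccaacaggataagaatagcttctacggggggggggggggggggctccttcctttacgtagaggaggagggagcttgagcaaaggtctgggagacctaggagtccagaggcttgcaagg
Col4a5: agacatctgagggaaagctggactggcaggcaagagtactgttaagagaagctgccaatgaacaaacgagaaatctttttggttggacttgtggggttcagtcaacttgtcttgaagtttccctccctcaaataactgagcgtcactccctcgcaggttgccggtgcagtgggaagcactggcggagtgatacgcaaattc
Col4a6: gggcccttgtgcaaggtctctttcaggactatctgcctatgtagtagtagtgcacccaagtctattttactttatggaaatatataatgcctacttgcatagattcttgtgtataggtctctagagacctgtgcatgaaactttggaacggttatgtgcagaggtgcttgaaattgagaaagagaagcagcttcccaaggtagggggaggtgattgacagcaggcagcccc
Within the 250 bases before the start, TGANTCA on either strand was found in 1 of the 43 promoters listed for 40 member genes, that of Col6a1, where it begins 90 bases before the first transcribed base. The same motif stood in 6.75% of 32851 promoters. The NF-κB motif, read as GGGA and CC with any 4 bases between them, was absent from the 4 sequences printed. It stood in 13 of the 43 member promoters (30.2%), against 17.6% of all promoters. The second listed start of Col6a2 and a promoter of Loxl4 were among the 13. The core ACGTG of the hypoxia response element stood in 8 of the 43 (18.6%), against 16.6% of all. The AP-1 match of Col6a1 was the only match to these 3 motifs in the sequences shown. For 13 members no promoter was listed.

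Signals are RMA values on the log2 scale, where a difference of 1 is a doubling, and levels of different probe sets are not compared. A value under 7.14, the 40th percentile of all probe sets, is called dim here. By their mean over all arrays 46 of the 53 members were above that limit, and the 7 below it were Col6a5, Col10a1, Col19a1, Col28a1, Lox, Loxl1 and P4ha2. Over the 26 arrays 35 members varied by less than 1 on the log2 scale from the lowest to the highest array. The 18 others were led by Col8a1 (range 3.58), Col12a1 (3.28), Plod2 (2.94), Col6a1 (2.88) and Col4a5 (2.53).

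The labels call the cells astrocytes derived from neural progenitors. All 12 astrocyte markers were above the dim limit, and the group mean of Gfap, the intermediate filament of astrocytes, went from 9.002 at 0 h to 13.54 at 72 h without TNF and was 12.66 at 72 h with TNF. In the mean TNF effect 6 of the 12 astrocyte markers were lower (limma, q under 0.05), against 4.7% of all genes, and 1 was higher, against 5.01%. Gfap was among the lower ones, by -0.58, and the lowest of the 12 lay at -0.84. The part of these marker changes in the collagen results was not tested. Among markers of cells that make collagen in brain, 7 of 15 fibroblast and meningeal genes, 8 of 13 mural genes and 6 of 10 endothelial genes were dim, and so were 6 of 9 microglia genes. The group means of Lum lay between 4.87 and 5.11, those of Dcn between 6.19 and 6.57 and those of Pecam1 between 6.72 and 6.86. Other markers were above the dim limit in every group, with Foxc1 between 8.15 and 9.02, Pdgfra between 8.46 and 9.10, Fbln1 between 7.87 and 9.14, Notch3 between 8.94 and 10.41 and Tagln between 7.34 and 9.28. Pdgfra was also on the list of oligodendrocyte lineage markers. Acta2 went from 8.40 at 0 h to 12.73 at 6 h and Ogn from 5.39 at 0 h to 10.60 at 72 h in untreated NSPs.

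Some arrays stood apart in the level of the members as a whole. The median over the 53 members was 8.27 on the first 0 h array, against 7.78 and 7.76 on the others. It was 8.18 on the first arrays of the untreated 6 h and 48 h groups and 8.15 on the first TNF array at 24 h, while all arrays of replicates 2 and 3 lay between 7.62 and 7.94. The median of all probe sets stayed between 7.54 and 7.76 on every array. Small differences shared by many members moved with these arrays, and each such result is therefore also given from replicates 2 and 3 alone, without the 9 arrays of replicate 1. At 72 h with TNF this setting leaves 1 array, whose label and place in the series differ in number. The 72 h and mean TNF effects of this setting rest in part on that array.

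**Figure D1:**
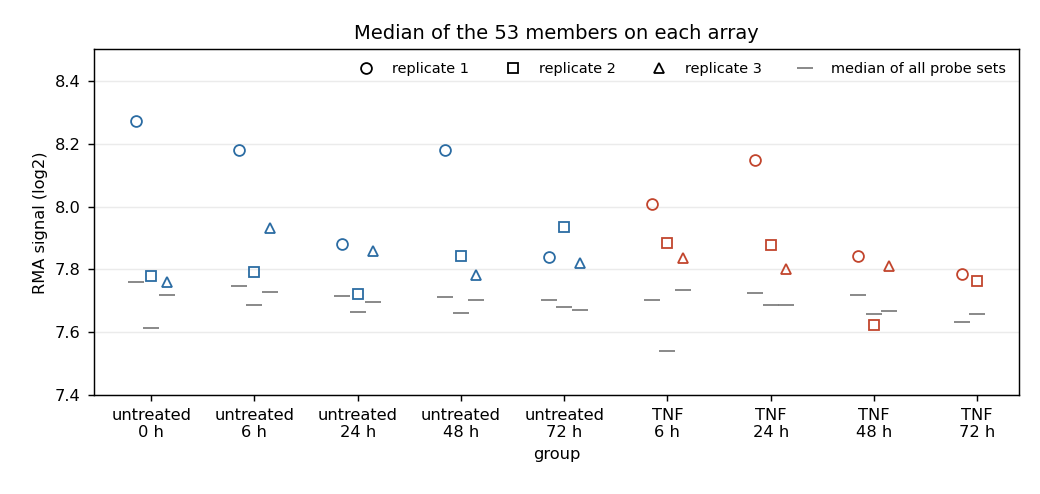
Median RMA signal (log2) of the 53 members on each array, by group, with 1 symbol per replicate and grey bars for the median of all probe sets. Replicate 1 stands highest at 0, 6 and 48 h without TNF and at 24 h with TNF, between 8.15 and 8.27.

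The first question was which collagen genes changed as untreated NSPs differentiated. A few members rose early and stayed high, while most stayed near their 0 h level. Against 0 h, 5, 5, 5 and 6 of the 53 members were higher at 6, 24, 48 and 72 h in turn (limma, q under 0.05, where q is the expected share of false calls). Over all genes, 5.5%, 11%, 11.3% and 14.6% were higher at these times, and the members' shares were 9.43%, 9.43%, 9.43% and 11.3%. Lower members numbered 2, 5, 0 and 2, or 3.77%, 9.43%, 0% and 3.77%, against 4.66%, 7.87%, 7.47% and 11.2% of all genes. At 48 h, 7 members had an unadjusted p under 0.05 in either direction. The share of higher members stood above that of all genes at 6 h and below it at the later times, with no test of these differences.

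The median change over the members was -0.09, -0.21, -0.07 and -0.17 over the 4 times, against -0.04, -0.08, -0.05 and -0.08 over all genes. From replicates 2 and 3 alone it was -0.000843, -0.0395, -0.0233 and 0.0119, and without the first 0 h array alone 0.10, -0.01, 0.10 and 0.01.

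**Figure D2:**
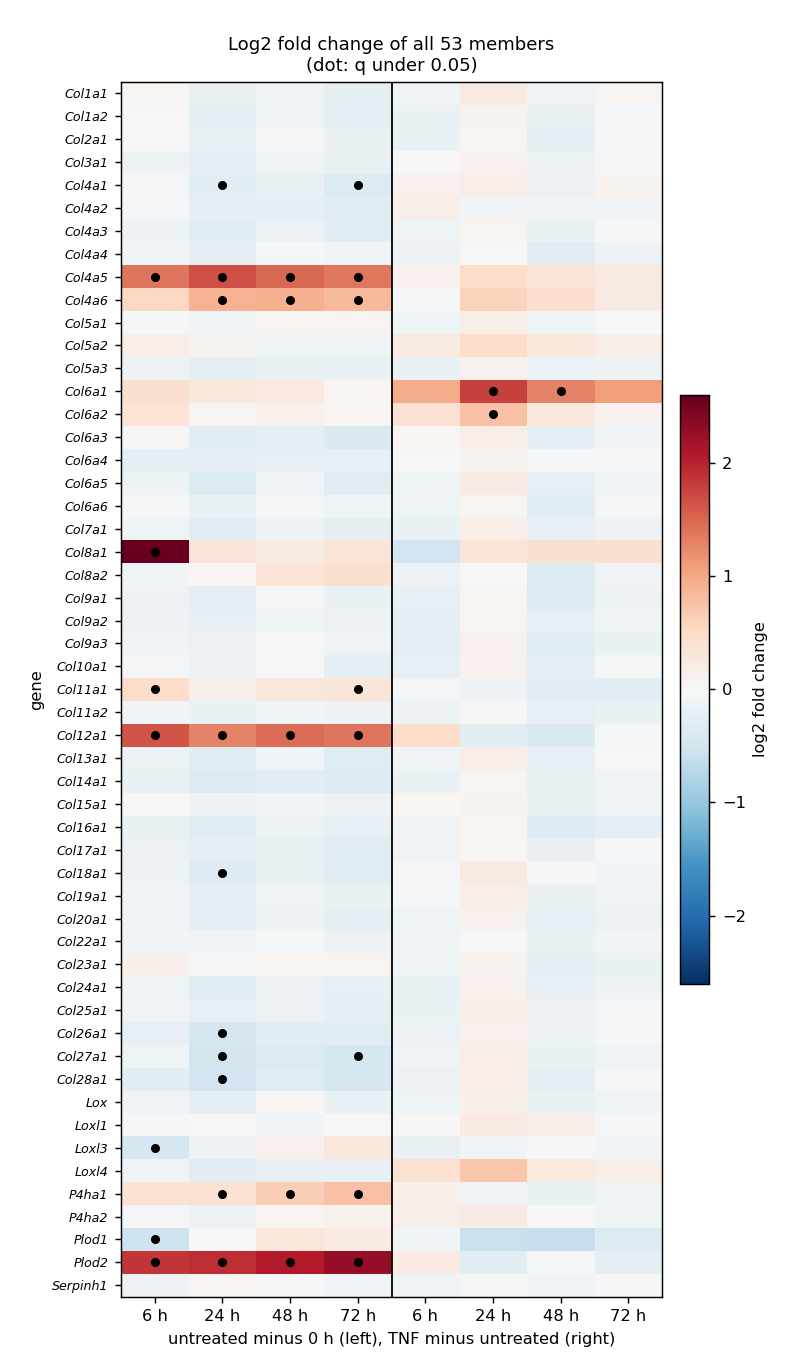
Log2 fold change of the 53 members (rows) at 4 times, untreated against 0 h on the left and TNF against untreated on the right, with a dot where q was under 0.05. The strongest colour is in few rows: Col4a5, Col12a1 and Plod2 at all untreated times, Col8a1 at 6 h, and Col6a1 with TNF. Paler cells include Col4a6 from 24 h on and P4ha1 at 72 h without TNF, and Col6a2 at 24 h with TNF.

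Collagen IV split into chains that rose and chains that did not. Col4a5 and Col4a6 encode the chains of a basement membrane network found in kidney and smooth muscle. Col4a5 read 7.95, 7.59 and 7.81 on the 0 h arrays, 8.91, 9.35 and 9.29 on those of 6 h, and 9.22, 9.79 and 9.36 on those of 24 h. Its arrays of 48 h read 8.998, 9.44 and 9.41 and those of 72 h 9.05, 9.23 and 9.22. Every later array was above every 0 h array. The rise was 1.40 ± 0.18 (SE) after 6 h and then 1.67, 1.497 and 1.38 in turn, or 2.64-fold, 3.18-fold, 2.82-fold and 2.604-fold (limma, q between 9.91e-07 and 2.11e-05).

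Col4a6 began at 7.43, 7.10 and 6.95, around the dim limit, and read 7.64, 7.67 and 7.78 after 6 h. It read 7.89, 8.27 and 8.002 after 24 h, 7.78, 8.15 and 8.29 after 48 h, and 7.75, 8.12 and 8.14 after 72 h. The later untreated arrays all lay above the 0 h arrays. From 24 h on the rise passed the test, at 0.90 ± 0.19, 0.91 and 0.84 with limma q of 0.00152, 0.0013 and 0.00143. The earlier rise of 0.54 had q = 0.0732, and q = 0.027 with the replicate number as a block.

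The widely expressed chains of the same family went the other way by a small amount. Col4a1, which pairs with Col4a2 in nearly all basement membranes, began at 8.26, 7.93 and 7.87, and read 7.74, 7.72 and 7.70 after 24 h and 7.60, 7.68 and 7.68 after 72 h. These later arrays lay below all 0 h arrays, and the highest value was that of the first 0 h array. The differences were -0.30 ± 0.11 and -0.36 (limma q = 0.0378 and 0.00987), but from replicates 2 and 3 alone q was 0.208 and 0.146. Without the first 0 h array alone, q was 0.202 and 0.069. Col4a2 differed by -0.23 and -0.29 at these times, with q of 0.113 and 0.052.

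Col8a1 had the largest single change of the untreated course and it was transient. It encodes a chain of collagen VIII, a short-chain network collagen of vessel walls and the cornea. Its signals began at 8.02, 7.402 and 7.01 and were 10.46, 9.14 and 10.59 after 6 h. By 24 h they were 7.86, 7.67 and 7.88, and by 72 h 7.64, 7.94 and 7.77, so all 6 h arrays lay above all others without TNF. The 6 h rise was 2.59 ± 0.33, or 6.01-fold (limma q = 2.31e-05). The later differences from 0 h did not pass the test, the largest being 0.33 at 24 h. The 3 TNF-treated arrays at 6 h read 9.55, 8.88 and 10.26, within the range of the untreated ones or just below it. With limma fitted to the 6 arrays compared, the 6 h rise had q = 0.0529.

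Col12a1 encodes the chain of a FACIT collagen that coats fibrils in tendon and other tissues under load. It began at 7.92, 7.52 and 7.08 and read 9.72, 8.62 and 9.08 after 6 h. It read 9.02, 8.59 and 8.78 after 24 h, 8.85, 9.19 and 8.81 after 48 h, and 9.02, 9.02 and 8.66 after 72 h. No later untreated array overlapped the 0 h arrays. The rise was 1.64 ± 0.28 after 6 h and 1.29, 1.44 and 1.40 at the later times (limma q between 0.000571 and 0.00202), and with limma fitted to the 6 arrays compared the 6 h rise had q = 0.089. The other 8 FACIT collagens were not called at any time, with a median over the class between -0.23 and -0.11.

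Among the 11 fibrillar collagens, Col11a1, a minor chain known from cartilage, was the only member called higher, at 6 h and at 72 h. It went from 8.74, 8.67 and 8.62 to 9.27, 8.98 and 9.22 after 6 h, with no overlap. The rises were 0.48 ± 0.12 and 0.32 (limma q = 0.0168 and 0.0445), and replicates 2 and 3 alone gave q = 0.137 at 6 h. The 72 h call was kept with 1 of 6 single arrays left out, and with Benjamini-Hochberg adjustment q was 0.0919. The chains of the common fibrils were level: Col1a1 differed from 0 h by 0.05, -0.19, -0.10 and -0.26 at the 4 times, Col1a2 by 0.01, -0.24, -0.10 and -0.25, and Col3a1 by -0.13, -0.22, -0.12 and -0.19. None of these passed the test, with q of 0.159 or more. On the first 0 h array Col1a1 read 8.80, against 8.18 and 8.08 on the others.

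Col27a1, another fibrillar chain, was called lower by -0.48 ± 0.18 after 24 h (limma q = 0.0471) and by -0.46 after 72 h (q = 0.0421). Its arrays began at 9.17, 8.25 and 8.66 and those of 24 h read 8.27, 8.04 and 8.33, and these ranges overlap. Col18a1 (-0.33), whose product is the source of endostatin, Col26a1 (-0.43) and Col28a1 (-0.50) were the other collagens called lower at 24 h, with q between 0.0392 and 0.0443. From replicates 2 and 3 alone limma called 0 members lower at each of the 4 times, and without the first 0 h array alone it called 1 lower at 6 h and 0 later. With the replicate block, which the pairing of arrays allows at these times, 2 were called lower at 48 h (Col27a1 and Col28a1) and 13 at 72 h. The share of all genes called lower with the block is not given here, so these counts cannot be set against it.

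Of the 5 hydroxylase and chaperone genes, Plod2 and P4ha1 were called higher at 72 h, and the median of the 5 was 0.22. Plod2, the lysyl hydroxylase that modifies the telopeptides and so sets the kind of cross-link, went from 8.17, 9.30 and 8.78 to 10.48, 10.86 and 10.47 after 6 h. It read 10.61, 10.83 and 10.60 after 24 h, 10.80, 11.02 and 10.62 after 48 h, and 11.11, 11.07 and 10.96 after 72 h. All later untreated arrays were more than 1 above the highest 0 h array. The first and last rises were 1.85 ± 0.20 and 2.29, or 3.60-fold and 4.90-fold (limma q = 3.99e-06 and 4.32e-08).

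P4ha1, a catalytic subunit of the prolyl hydroxylase that stabilises the helix, went from 9.49, 9.95 and 9.67 to 10.31, 9.94 and 10.00 after 6 h. It read 10.12, 10.18 and 10.02 after 24 h, 10.23, 10.62 and 10.20 after 48 h, and 10.36, 10.68 and 10.36 after 72 h. The arrays from 24 h on lay above all 0 h arrays. From 24 h on the differences were 0.41 ± 0.13, 0.65 and 0.77 (limma q = 0.0273, 0.00138 and 0.000156). The 24 h call was lost from replicates 2 and 3 alone (q = 0.201), with array weights, with Benjamini-Hochberg adjustment and without the first 0 h array (q = 0.128) or the first or the second 24 h array (q = 0.0605 and 0.126). On the compared arrays alone q was 0.145 at 24 h and 0.11 at 48 h. The earlier difference of 0.38 had q = 0.0736, and q = 0.0366 with the replicate block.

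Plod1, the lysyl hydroxylase of the helical part, dipped at 6 h from 11.21, 10.77 and 11.46 to 10.31, 10.68 and 10.83, ranges that overlap. The difference was -0.54 ± 0.17 (limma q = 0.043), and the later differences did not pass the test. Loxl3, a lysyl oxidase, went from 8.57, 8.33 and 8.69 to 7.97, 7.96 and 8.30, a difference of -0.45 ± 0.12 with no overlap (q = 0.0173). Both lost the call in replicates 2 and 3 alone, with q of 0.466 for Plod1 and 0.291 for Loxl3. Serpinh1 stayed between 10.08 and 10.44 on all untreated arrays, with differences from -0.13 to 0.06. Lox was dim, with differences from -0.25 to 0.03. Members that did not pass the test lay between -0.43 (Col28a1 at 72 h) and 0.54 (Col4a6 at 6 h), and from 48 h on the highest of them was Col8a2, the other chain of collagen VIII, at 0.36 and 0.41.

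**Figure D3:**
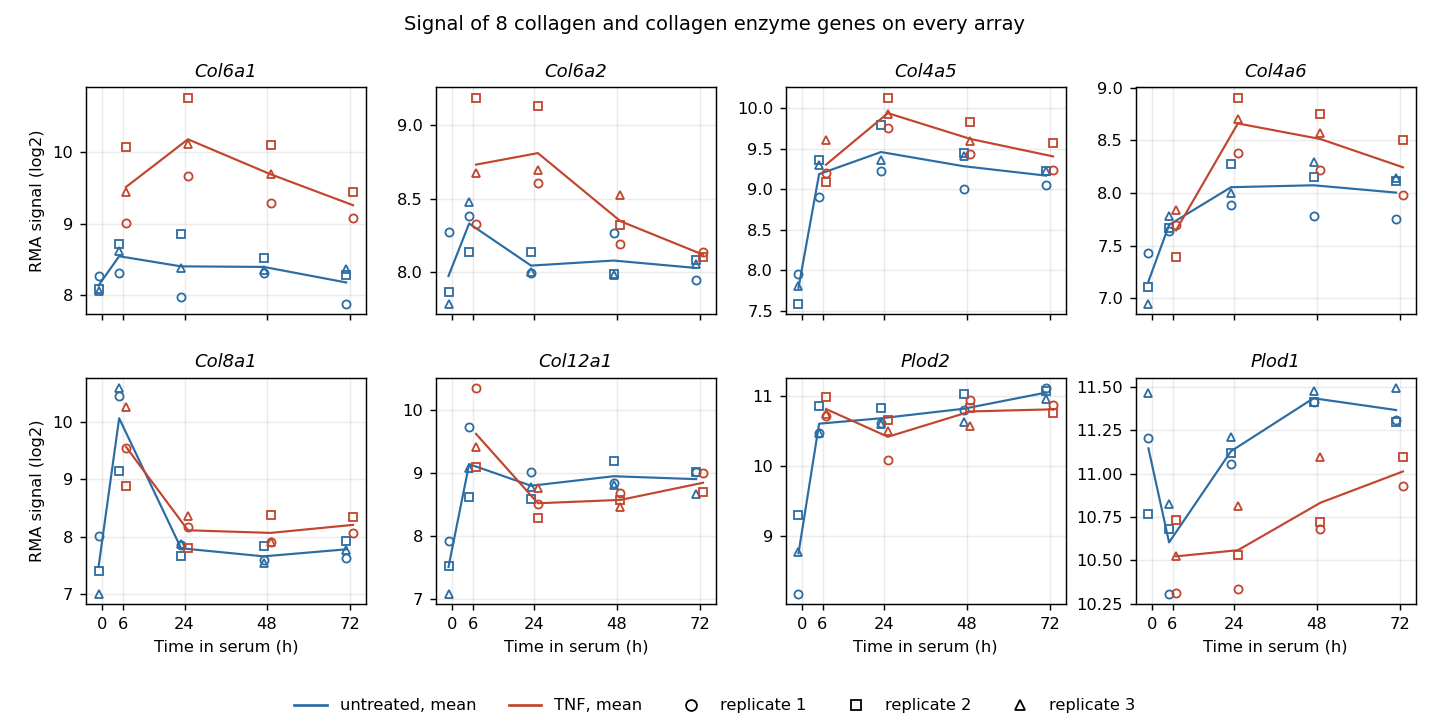
RMA signal (log2) against time in serum for 8 members, with 1 symbol per array and lines through the group means, untreated in blue and TNF-treated in red. Col6a1 separates the arms at every time, Col8a1 is high at 6 h in both arms, and Plod2 lies near 11 at 72 h from a start between 8.17 and 9.30.

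Of the 13 mural markers 1 was called higher at 6 h without TNF, Acta2 by 4.33, and 1 lower, Notch3 by -1.15, with a median of -0.05 over the list (limma). Over all genes, 5.5% were called higher and 4.66% lower at that time. The summed level of the 13 mural markers was 11.45 to 11.74 on the 0 h arrays and 12.56 to 13.45 on the untreated 6 h arrays, while 8 of the 13 genes were dim by their mean over all arrays. The summed level of the 15 fibroblast and meningeal markers went from 11.37 to 11.52 on the 0 h arrays to 11.16 to 11.25 after 6 h, and to 11.87 to 12.23 after 72 h. The sums are of unlogged signals, so bright genes weigh most. Acta2 alone went from a group mean of 8.40 at 0 h to 12.73 at 6 h, and Ogn alone from 5.39 to 10.60 at 72 h. The median change over the fibroblast and meningeal list at 72 h was -0.17. The part of either list in the collagen results was not tested. In bulk RNA, fewer cells of a type and less RNA per cell cannot be told apart.

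The second question was what TNF did to these genes at the same times. Of 10 NF-κB target genes used to check the treatment, 8 rose after 6 h and 9 at each later time, with Nfkbia higher by 2.11 to 2.67. Among the collagen genes 2 chains of collagen VI, Col6a1 and Col6a2, were the members called at a single time. At 24 h 2 of 53 members were higher (3.77%, against 0.953% of all genes) and 0 lower (against 0.306%), and 7 had an unadjusted p under 0.05. At 48 h 1 was higher (1.89%, against 1.12%) and 0 lower (against 0.376%), with 6 at an unadjusted p under 0.05. At the first and last time limma called 0 members in either direction, and 2 members had an unadjusted p under 0.05 each time. Over all genes, 0.507% were higher and 0.01% lower after 6 h, and 0.873% higher and 0.657% lower after 72 h.

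Col6a1, which encodes the first chain of collagen VI, was higher on every TNF-treated array than on any untreated array of the same time. At 6 h it read 9.02, 10.08 and 9.45 with TNF and 8.31, 8.72 and 8.62 without. At 24 h it read 9.67, 10.76 and 10.11 with TNF and 7.97, 8.86 and 8.38 without. At 48 h the TNF-treated arrays read 9.29, 10.10 and 9.69 and the untreated ones 8.31, 8.53 and 8.36. At 72 h they read 9.08 and 9.44 with TNF and 7.88, 8.29 and 8.37 without. The lowest TNF-treated value at any time, 9.02, lay above the highest untreated value, 8.86.

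The effect on Col6a1 was 0.97 ± 0.28, 1.78 ± 0.28, 1.29 ± 0.28 and 1.08 ± 0.31 over the 4 times, or 1.96-fold, 3.42-fold, 2.45-fold and 2.11-fold. It passed the test at 24 and 48 h (limma q = 0.00116 and 0.0193), and not at the first and last time (q = 0.303 and 0.112). For 6 h, where same-numbered arrays of both arms deviated together, the replicate block gave q = 0.00892. The 24 h effect exceeded the 6 h effect by 0.81 ± 0.39, which did not pass the test (q = 1). The call at 24 h held with each of the 6 arrays left out. It was lost with limma fitted to those 6 arrays alone (q = 0.0599). The call at 48 h was lost without the first or the third untreated array (q = 0.109 and 0.091) or without the second or the third TNF-treated array (q = 0.202 and 0.076).

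Col6a2 encodes the second chain of the same molecule. At 24 h it read 8.61, 9.13 and 8.69 with TNF and 7.995, 8.13 and 8.001 without, and the groups did not overlap. At 6 h the groups overlapped, with 8.33, 9.19 and 8.68 against 8.38, 8.13 and 8.48. The 24 h effect was 0.77 ± 0.18 (1.70-fold, limma q = 0.0411). The effects of 0.40, 0.27 and 0.09 at the other times did not pass the test. This call was lost without any of the 3 untreated arrays (q = 0.176, 0.09 and 0.19), without the second or the third TNF-treated array (q = 0.355 and 0.077), and from replicates 2 and 3 alone (q = 0.162).

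Col6a3, the third and largest chain of the standard collagen VI molecule, was not called. It read 7.78, 7.56 and 7.28 at 24 h with TNF and 7.44, 7.28 and 7.39 without, a difference of 0.17 ± 0.16 (limma q = 1). The remaining chains Col6a4, Col6a5 and Col6a6 were not called either, and at 24 h the lowest effect in the family was 0.06.

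**Figure D4:**
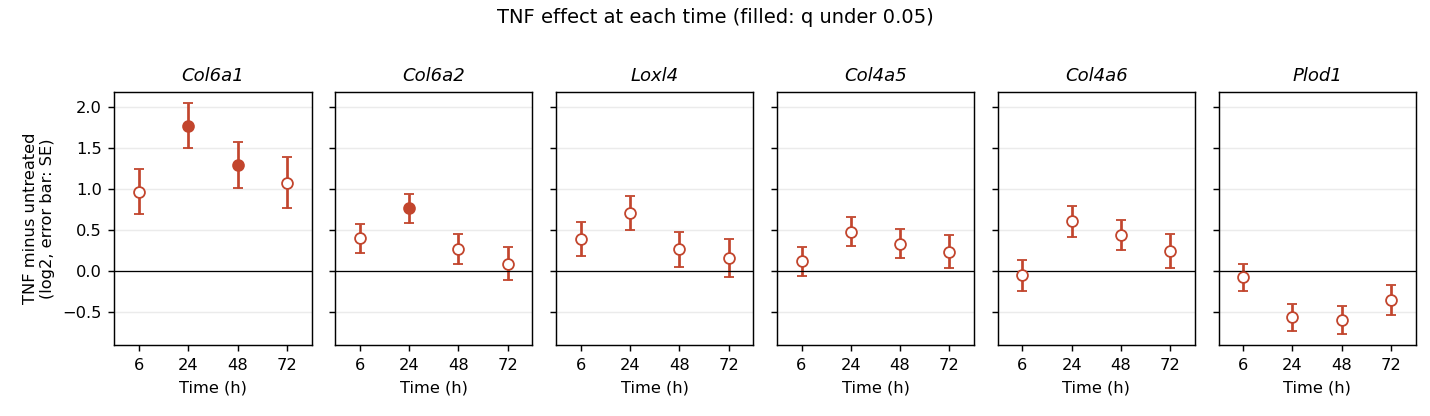
TNF effect (log2, TNF-treated minus untreated, with its SE) at 6, 24, 48 and 72 h for the 6 members called in the mean effect, filled where q was under 0.05 at that time. Col6a1 lies at or above 0.97 at all 4 times, and Plod1 lies below 0 at all 4.

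Markers of collagen-making cells were read beside Col6a1. At 24 h the summed level of the fibroblast and meningeal list was 11.20 to 11.34 with TNF and 11.39 to 11.55 without, and that of the mural list 13.28 to 13.61 with TNF and 13.05 to 13.79 without. Bright genes weigh most in these sums: the group mean of Ogn was 8.29 with TNF and 9.14 without, and that of Acta2 13.08 and 13.05. Genes of these lists differed by -1.44 to 0.81 and by -0.77 to 0.72 over the 4 times, and did not pass the test at a single time (limma). In the mean TNF effect 2 of the 15 were lower, Ogn by -0.90 and Fbln1 by -0.38, and 1 of the 13, Pdgfrb by -0.40. Over all genes, 4.7% were lower in this mean.

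Averaged over the 4 times, 5 members were higher with TNF (9.43%, against 5.01% of all genes) and 1 lower (1.89%, against 4.7%). Col6a1 was higher by 1.28 ± 0.14 (limma q = 3e-06) and Col6a2 by 0.38 ± 0.09 (q = 0.00863). Both held with each single array left out and from replicates 2 and 3 alone.

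The collagen IV pair that rose in the untreated course was also higher with TNF in this mean, Col4a5 by 0.29 ± 0.09 and Col4a6 by 0.31 ± 0.10 (limma q = 0.0426 and 0.0425). At 24 h Col4a6 read 8.38, 8.91 and 8.70 with TNF, against 7.89, 8.27 and 8.002 without. Col4a5 read 9.75, 10.13 and 9.93, against 9.22, 9.79 and 9.36. The Col4a6 groups did not overlap and the Col4a5 groups did. Neither was called at a single time, with q of 0.228 and 0.475 at 24 h, and with Benjamini-Hochberg adjustment both means gave 0.065. From replicates 2 and 3 alone the mean effect on Col4a5 was not called (limma q = 0.14), while that on Col4a6 was. With 1 of 23 arrays left out in turn, the mean was called 9 times for Col4a5 and 8 times for Col4a6. Col4a1 and Col4a2 differed with TNF by -0.15 to 0.18 and by -0.08 to 0.14.

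Loxl4, a lysyl oxidase, was higher by 0.38 ± 0.11 (limma q = 0.0244). At 24 h it read 7.60, 7.89 and 7.38 with TNF and 7.06, 6.86 and 6.81 without, no overlap, with all 3 untreated values under the dim limit, and the difference of 0.71 was not called (q = 0.176). The mean effect was not called from replicates 2 and 3 alone (q = 0.0895), and without 1 of 5 single arrays its q was 0.0504 to 0.0724. These were the untreated 6 h replicate 3, the untreated 72 h replicate 1, the TNF 24 h replicate 2 and each of the TNF arrays of 72 h. The other probe set of Loxl4, dim with a mean of 5.37, differed by 0.88, 1.10, 0.56 and 0.53 at 6, 24, 48 and 72 h. The one used differed by 0.39, 0.71, 0.26 and 0.16.

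Plod1 was the member that was lower with TNF in the mean, by -0.40 ± 0.09 (limma q = 0.00369). At 24 h it read 10.33, 10.53 and 10.81 with TNF and 11.05, 11.12 and 11.21 without, and at 48 h 10.68, 10.72 and 11.10 against 11.41, 11.41 and 11.48. The groups did not overlap at either time. These differences of -0.57 and -0.60 had q of 0.175 and 0.111. From replicates 2 and 3 alone the mean effect had q = 0.0985. Plod2 and P4ha1, which rose in the untreated course, were not called for TNF at any time.

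The remaining members showed no called TNF effect. The fibrillar chains differed by -0.30 to 0.47 over the 4 times, with Col1a1 at -0.09, 0.24, -0.11 and 0.06, Col1a2 at -0.17, 0.09, -0.20 and -0.06, and Col3a1 at -0.01, 0.12, -0.16 and -0.04. Serpinh1 differed by -0.09 to -0.03 and Lox by -0.17 to 0.13. Col8a1 was the lowest member after 6 h at -0.50, and in the mean over the 4 times the uncalled members lay between -0.19 (Col11a1) and 0.28 (Col5a2). At 48 h 45 of 53 members were below 0, against 59.4% of all genes, and at 24 h 8 were, against 42.4%. The members' medians were -0.11, 0.11, -0.18 and -0.07 at the 4 times. From replicates 2 and 3 alone, with 1 TNF array at 72 h, they were -0.03, 0.04, -0.10 and -0.11. In the tests of whether the effect at 24, 48 or 72 h differed from that at 6 h, limma called 0 members in either direction, and 1, 2 and 0 members had an unadjusted p under 0.05. The differences lay between -0.86 (Col12a1, 48 h) and 0.92 (Col8a1, 72 h). Over all genes, 0.0251%, 0.115% and 0.13% were called higher and 0%, 0.0301% and 0.0602% lower in these tests.

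Other genes that work with collagen were counted from lists, to be read against the shares of all genes given above, which at 72 h without TNF were 14.6% higher and 11.2% lower. Of 23 other genes of collagen biosynthesis, 5 rose and 1 fell after 6 h without TNF and 8 rose and 1 fell after 72 h. P3h2, a prolyl 3-hydroxylase that acts on collagen IV, rose by 3.29 and 3.65 at these times, Pcolce2, an enhancer of procollagen processing, by 2.89 and 1.78, and Sec24d, a coat protein needed to export procollagen, by 1.54 and 1.33. With TNF, 1 gene of this list rose and 1 fell at a single time, and 1 was higher and 4 lower in the mean effect. Creb3l1, a transcription factor of collagen genes, rose by 1.18 ± 0.21 at 6 h (limma q = 0.0076), and Pcolce2 fell by 1.09 ± 0.24 at 24 h (q = 0.027).

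Of 10 collagen receptors and uptake genes, 2 rose and 1 fell after 6 h without TNF, 4 rose and 0 fell after 24 h, 3 rose and 1 fell after 48 h, and 3 rose and 2 fell after 72 h. At 72 h the integrin chain Itga1 was higher by 2.49 and the receptor kinases Ddr2 and Ddr1 by 0.86 and 0.69, while Adgrg1 was lower by -0.76 and Mrc2 by -0.47. Their TNF effects at single times ran from -1.26 to 0.25 and did not pass the test (limma). In the mean over the 4 times 3 were lower, Itga2 by -0.99, Itga1 by -0.58 and Adgrg1 by -0.42.

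Of 19 matrix partners, 4 rose and 5 fell at 72 h without TNF. Thbs1 rose by 3.61, Fmod by 3.07, Fn1 by 2.52 and Sparc by 1.48, and Fbln2 fell by 3.69. With TNF, Matn2, a filament-forming adaptor of the matrix, rose by 1.36 ± 0.23 at 24 h (limma q = 0.00307). In the mean TNF effect 2 of the 19 were higher and 1 lower.

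Of 12 basement membrane partners, 2 rose and 3 fell at 72 h without TNF, and the share that rose was close to that of all genes. These were Lamb2 by 1.32 and Nid2 by 0.79 upward and Lamb1 by -1.54, Nid1 by -0.52 and Lama1 by -0.42. With TNF, Hspg2, the basement membrane proteoglycan perlecan, rose by 1.48 ± 0.34 after 24 h and 1.49 after 48 h (limma q = 0.0352 and 0.0281). The differences of 0.92 and 1.45 at the other times did not pass the test. In the mean TNF effect 3 of the 12 partners were higher and 0 lower.

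Of 16 TGF-beta pathway genes, 6 rose and 1 fell after 6 h without TNF, and the same counts held after 72 h. The ligand Tgfb2 was higher by 1.11 and 0.94 at these times, the target Ctgf by 1.89 and 1.90, and Smad7 by 1.09 at 6 h. With TNF, Smad3, which carries the signal to the nucleus, rose by 0.84 after 48 h and 0.82 after 72 h (limma q = 0.0191 and 0.0486), and Tgfbr3 by 0.55 at 72 h (q = 0.0259). In the mean TNF effect 3 of the 16 were higher and 1 lower, with values from -0.74 to 0.71.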

How the data were processed

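RNA of NSPs was measured on Affymetrix MoGene 1.0 ST arrays. The deposited values are log2 signals that the authors made with RMA of the oligo package in R 3.3.1, per the submitters' processing notes, which means background correction, quantile normalization across arrays and 1 summary value per probe set. Quantile normalization hides a shift shared by most genes. Arrays have no read depth.

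Of 35556 probe sets, 21789 carried a single symbol in the platform annotation, 1621 several and 12146 none. Groups came from the sample titles. limma 3.58.1 in R 4.3.3 fitted 1 mean per group to all 26 arrays and all probe sets, and 12 comparisons were drawn from this fit with eBayes. A result was called when its q-value, computed over all probe sets by the smoother method of Storey, was under 0.05. Members were named in a comparison where called, together with the highest and lowest of the others. Col1a1, Col1a2, Col3a1, Col4a1, Col4a2, Lox, P4ha1 and Serpinh1 were named as well. From each list some of the called genes were named, not always those with the largest change. The other collagen VI chains and the dim members were named after their values were seen. The members, the 15 gene lists and the tests were chosen with earlier results of these data known. The code was tested on simulated data.

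Same-numbered arrays deviated together (correlation of deviations over all probe sets above 0.1 for each number) in the 6 h TNF comparison (0.674, 0.559 and 0.461) and in the untreated comparisons of 6, 48 and 72 h, and not in the other comparisons. The series states no shared batch behind the numbers. Alternatives were Benjamini-Hochberg adjustment, a fit to the compared arrays only, array weights, cyclic loess, eBayes with a trend on intensity and robust priors, the replicate block, dim probe sets left out, probe sets averaged per gene, each array left out and, added after the data were seen, replicates 2 and 3 alone. All 53 members matched RefSeq (GRCm38.p6), and 40 had a promoter there. Figures were drawn with matplotlib 3.10.9.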

Additional observations from a re-analysis of the deposited data

How the results depend on the processing

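Of the 39 member results called, 18 were called under every other setting apart from single arrays left out, and 22 with every single array left out. No gene result changed sign. The called rises of Col4a5, Col4a6, Col12a1 and Plod2 in untreated NSPs from 24 h on held in all of these, and so did the rises of Col4a5 and Plod2 at 6 h, that of P4ha1 at 72 h and the mean TNF effects on Col6a1 and Col6a2. The replicate block called 1 member higher with TNF at 6 h and 1 at 72 h (Col6a1) in place of 0, 1 lower at 24 h and 1 lower at 48 h (Plod1) in place of 0, and 3 in place of 1 lower in the mean. In untreated NSPs the block called 15 in place of 5 lower at 24 h, 2 in place of 0 at 48 h and 13 in place of 2 at 72 h. With the block and the second TNF array of 72 h left out, whose label and place in the series differ in number, 1 was called higher at 72 h. Array weights called 1 higher and 1 lower with TNF at 6 h, 5 higher and 1 lower at 24 h, 1 lower at 48 h, 1 higher and 2 lower at 72 h, and 5 lower in the mean. In untreated NSPs array weights called 0 lower at 6, 24 and 72 h. A fit to the compared arrays only called 0 higher with TNF at 24 h and 1 at 72 h, 2 in place of 5 higher at 6 h without TNF, and 0 lower at 6, 24 and 72 h. Benjamini-Hochberg adjustment called 1 lower at 6 h, 0 at 24 h and 1 at 72 h without TNF, and 3 higher in the mean TNF effect. Cyclic loess called 1 higher with TNF at 24 h, and 6 lower at 72 h without TNF. Leaving out dim probe sets, or averaging a gene's probe sets, called 6 lower at 72 h without TNF and 2 lower in the mean TNF effect. Replicates 2 and 3 alone called 1 higher with TNF at 24 h, 3 higher and 0 lower in the mean TNF effect, and 0 lower at 6, 24 and 72 h without TNF, where the members' median was -0.0395 at 24 h and 0.0119 at 72 h. The shares of all genes called under these settings are not given here, so the counts cannot be set against them. The cause of the differences between settings was not tested.

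With single arrays left out, the members called higher with TNF numbered 1 to 2 at 24 h, 0 to 1 at 48 h and 2 to 5 in the mean, where 1 to 2 were lower. At 24 h 1 was called without any 1 of the 3 untreated arrays or without the second or the third TNF array, and at 48 h 0 without the first or the third untreated array or the second or the third TNF array. In the mean, the count was 2 without the untreated 6 h replicate 3, the untreated 72 h replicate 1, the TNF 24 h replicate 2 or the TNF 72 h replicate 2, and 3 or more without any other. The second lower member came without the untreated 24 h replicate 1, the untreated 6 h replicate 2, the TNF 6 h replicate 3 or the TNF 72 h replicate 2. Members called lower without TNF numbered 0 to 2 at 6 h, 0 to 13 at 24 h, 0 to 1 at 48 h and 0 to 10 at 72 h, with 13 and 10 without the third 0 h array and 0 from 24 h on without the first. The count was also 0 at 6 h without the third 0 h array or the first or the second 6 h array, and 0 at 24 h without the second or the third 24 h array and 1 without the first. At 48 h it was 1 without the second or the third 0 h array. At 72 h it was 6 without the second 0 h array and 1 with any single 72 h array left out. The shares of all genes called with single arrays left out are not given here either. The members' median ran from -0.20 to 0.10 at 6 h, from -0.31 to -0.0115 at 24 h, from -0.17 to 0.10 at 48 h and from -0.28 to 0.0138 at 72 h, and the upper ends came without the first 0 h array. Levels near the dim limit bound what a difference in Col4a6 or Loxl4 can show. All untreated comparisons share the 3 arrays of 0 h.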

Other observations

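Gene lists used to describe the cells were counted in untreated NSPs at 72 h against 0 h, where 14.6% of all genes were higher and 11.2% lower. Of 12 astrocyte genes 4 were higher, of 9 stem and progenitor genes 4 were higher and 3 lower, of 8 oligodendrocyte lineage genes 3 were lower, and of 11 proliferation genes 4 were lower (limma, q under 0.05). The 11 proliferation genes differed by -3.08 to -0.30, with a median of -2.35. Of 8 neuron genes 1 was higher and 1 lower, and of 10 endothelial genes 1 was higher, shares close to those of all genes. The 9 microglia genes differed by -0.21 to -0.0011 and did not pass the test.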
